A study of Mus musculus with 9 samples.

Results

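The anoctamins, also called TMEM16 proteins, are a family of membrane proteins encoded in mouse by Ano1 to Ano10. These 10 genes were taken as the members of the family and matched by symbol to the array annotation, counting a probe only where it carried exactly 1 symbol. Each of the 10 was represented by 1 probe, so that 10 of the 22180 genes measured in the series are described here. The arrays compared alpha TC6 cells, a mouse line of glucagon-producing alpha cells derived from a tumor, in 3 stable lines that had been infected with a lentivirus carrying a short hairpin RNA and then selected with puromycin. The hairpin was nonsilencing in the control line, targeted IRS1 in alphaIRS1KD cells and targeted IRS2 in alphaIRS2KD cells. IRS1 and IRS2 are the adaptor proteins that pass the signal of the insulin receptor into the cell, and the question was which genes follow the loss of either one. Each group had 3 arrays and came from 1 line, so that a difference between knockdowns and a difference between lines cannot be told apart. No source states that the arrays of a group came from separate cultures, and p-values therefore measure only the spread between these samples, which may be technical.

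Anoctamins share a fold of membrane-spanning helices and act as dimers. Some are chloride channels opened by intracellular calcium, others are scramblases that let phospholipids move between the leaflets of the membrane when calcium rises, and a few stay in the endoplasmic reticulum, where they hold membranes together or scramble their lipids. In an excitable endocrine cell a calcium-activated chloride channel couples each calcium rise to the membrane potential, with a direction that depends on how much chloride the cell has accumulated through its cotransporters. In pancreatic beta cells Ano1 is known to take part in insulin secretion.

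The promoters of Ano1 and Ano6 are shown because these were the 2 members that rose in alphaIRS1KD against control cells, a comparison in which 2.98% of all genes were called as higher. Each is the reference sequence of RefSeq in build GRCm38.p6, from 250 bases before to 50 bases after the annotated transcription start, printed 5′ to 3′ on the strand of the gene. Ano1 lies at chr7:144738524-144738823 on the minus strand and Ano6 at chr15:95790593-95790892 on the plus strand. Capitals mark GC boxes, the letters GGGCGG bound by SP and KLF factors.
Ano1: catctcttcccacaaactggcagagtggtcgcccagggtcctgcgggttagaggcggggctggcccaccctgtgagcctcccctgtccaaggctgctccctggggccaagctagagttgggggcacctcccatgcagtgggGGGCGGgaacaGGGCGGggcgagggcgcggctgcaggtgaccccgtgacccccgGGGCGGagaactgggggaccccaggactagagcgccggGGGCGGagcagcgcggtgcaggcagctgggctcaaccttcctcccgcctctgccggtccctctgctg
Ano6: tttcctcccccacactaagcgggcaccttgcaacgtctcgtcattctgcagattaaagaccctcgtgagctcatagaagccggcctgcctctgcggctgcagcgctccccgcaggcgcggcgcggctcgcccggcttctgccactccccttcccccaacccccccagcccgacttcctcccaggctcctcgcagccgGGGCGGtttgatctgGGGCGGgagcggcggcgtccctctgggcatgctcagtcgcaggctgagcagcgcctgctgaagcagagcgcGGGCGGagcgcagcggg

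Both windows were rich in G and C. The Ano1 window held 71.7% GC, more than 92.6% of the 32851 promoter windows of the same length in the table, and the Ano6 window held 69.7%, more than 89.9% of them, against a median of 52.7%. A GC content above that median was shared by members that were not called, with 65.7% for Ano10 and 60.7% for Ano5. Only the windows of Ano3, at 43.7% and 52.0%, lay below it. Ano1 carried 4 GC boxes, all on the strand of the gene, whose first bases lay 109, 98, 55 and 17 bases before the start. Ano6 carried 3, at 53 and 38 bases before the start and 1 after it. A GC box on either strand was present in 35.7% of all windows. It was not particular to the 2 genes that rose, since Ano10, with 5 GC boxes on the opposite strand, Ano2 and Ano4 carried it as well. In all, 8 members had an entry in the promoter table, with 11 windows, and 5 of these windows held a GC box. The other motifs were sought on both strands with the same method, and none overlapped a GC box. GTAAACA, a forkhead motif, was found in 0 of the 11 windows and in 3.65% of all windows, and TGACGTCA, the cyclic AMP response element, in 0 of 11 and in 1.79%. CACGTG, the E-box, and TATAAA, the TATA box, each occurred in 1 window of Ano3, beside 7.15% and 13.6% of all windows. A match is a description of the letters, and no binding was measured.

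The arrays report each gene as a log2 signal, made from the probe intensities by RMA, which corrects the background, brings the arrays to 1 distribution and summarizes the probes of a transcript. A difference of 1 on this scale is a doubling. Since the brightness of a probe also depends on its sequence, signals of different genes were not compared as amounts of RNA. As a picture of dim probes, the 1105 measured olfactory receptor genes (Olfr), a family with little expression outside the nose, had mean signals with a median of 2.82, a 95th percentile of 4.93 and a 99th percentile of 5.91. The members fell into bright and dim probes. Ano6 and Ano10 were brighter than 100% of the Olfr genes and Ano8 than 99.8%. Ano2 and Ano7, each brighter than 94.3%, and Ano9, Ano3, Ano5 and Ano4, brighter than 86.0%, 79.5%, 75.7% and 57.4%, were in the range of the Olfr genes. Ano1 changed its place between groups. Its mean of 4.68 in control and 4.58 in alphaIRS2KD cells lay below the 95th percentile of the Olfr genes, whereas its mean of 6.46 in alphaIRS1KD cells was brighter than 99.8% of them.

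**Figure D1:**
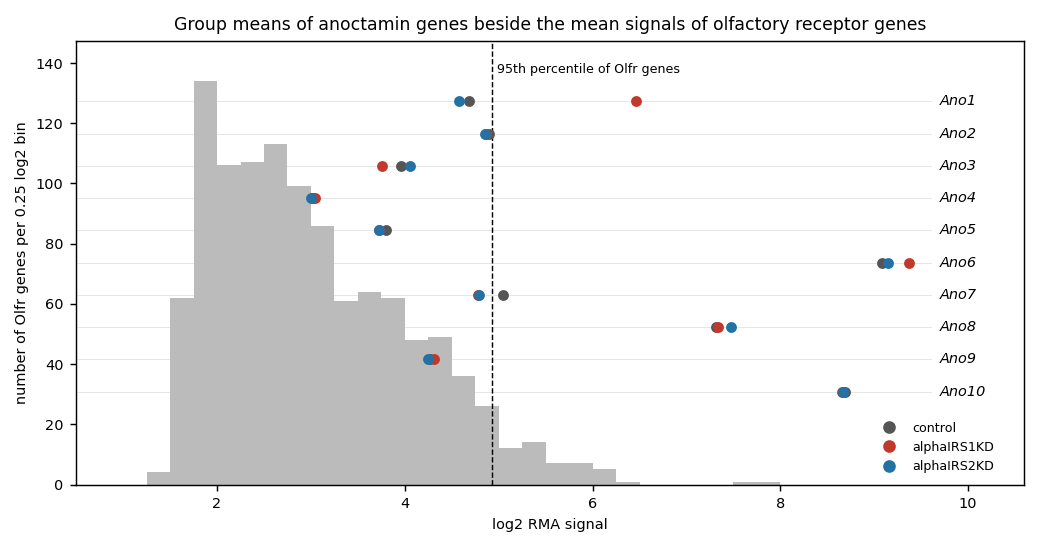
Group means of the log2 RMA signal of the 10 anoctamin genes (points, 1 row per gene, colored by group, n = 3 arrays each) over a histogram of the mean signals of 1105 Olfr genes (left axis, number of genes per bin). The dashed line is the 95th percentile of the Olfr genes at 4.93, and Ano1 lies to its right only in alphaIRS1KD cells.

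Ano1 encodes a calcium-activated chloride channel of epithelia, smooth muscle and endocrine cells. Its log2 signals were 4.33, 4.87 and 4.86 on the control arrays, 6.41, 6.64 and 6.32 on the alphaIRS1KD arrays and 4.23, 4.85 and 4.66 on the alphaIRS2KD arrays. All 3 alphaIRS1KD arrays were high and the other 6 were low, with a gap of 1.45 between the lowest alphaIRS1KD array and the highest control array. The group means were 4.68 ± 0.31 (SD, n = 3), 6.46 ± 0.17 (SD, n = 3) and 4.58 ± 0.32 (SD, n = 3). Relative to control, the alphaIRS1KD signal of Ano1 was up 3.43-fold (log2 fold change 1.78, SE 0.19, 95% interval 1.35 to 2.21, adjusted p = 0.00069 from limma). Relative to alphaIRS2KD cells it was up 3.69-fold (log2 fold change 1.88, 95% interval 1.45 to 2.31, adjusted p = 8e-04 from limma). Between alphaIRS2KD and control cells the difference was -0.11, with an interval from -0.54 to 0.32 (adjusted p = 0.89). Since the control and alphaIRS2KD means were in the range of the Olfr genes, the size of both folds rests on dim signals. In a bulk sample, more cells that express a gene and more RNA of it per cell cannot be told apart.

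Ano2, the calcium-activated chloride channel of olfactory neurons and photoreceptors, had a dim probe. Its log2 signals were 4.71, 5.14 and 4.86 in control cells, 4.86, 4.86 and 4.86 in alphaIRS1KD cells and 4.84, 4.65 and 5.07 in alphaIRS2KD cells. The 3 groups overlapped, and the log2 differences from control were -0.04 (95% interval -0.33 to 0.24, adjusted p = 0.91 from limma) in alphaIRS1KD and -0.05 (-0.33 to 0.23, adjusted p = 0.93) in alphaIRS2KD cells. An identical signal stood on 4 of the 9 Ano2 arrays. Such repeated values occurred in 47.3% of all 41345 probes and also in Ano3, Ano4, Ano5, Ano7 and Ano9, so the SDs of these genes may understate their spread. Ano1, Ano6, Ano8 and Ano10 had none.

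Ano6, which encodes the calcium-activated scramblase that exposes phosphatidylserine on activated platelets and also conducts ions, was measured by a bright probe. The log2 signals were 9.07, 9.08 and 9.10 in control cells, 9.38, 9.34 and 9.39 in alphaIRS1KD cells and 9.20, 9.17 and 9.08 in alphaIRS2KD cells. Again the 3 alphaIRS1KD arrays were above the other 6, by 0.24 over the highest control array and by 0.14 over the highest alphaIRS2KD array. The rise was small beside that of Ano1. From 9.08 ± 0.01 (SD, n = 3) to 9.37 ± 0.03 (SD, n = 3) it amounted to 1.22-fold (log2 fold change 0.29, SE 0.05, 95% interval 0.17 to 0.40, adjusted p = 0.0093 from limma). Against alphaIRS2KD cells, with 9.15 ± 0.07 (SD, n = 3), the difference was 0.22 (SE 0.05, 95% interval 0.11 to 0.34) and barely under the threshold (adjusted p = 0.046). That call was lost in 16 of 22 alternatives, among them each of the 9 fits with 1 array left out (adjusted p from 0.062 to 0.14), while the value stayed between 0.18 and 0.25. In alphaIRS2KD against control cells the difference was 0.07 (95% interval -0.05 to 0.18, adjusted p = 0.71).

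**Figure D2:**
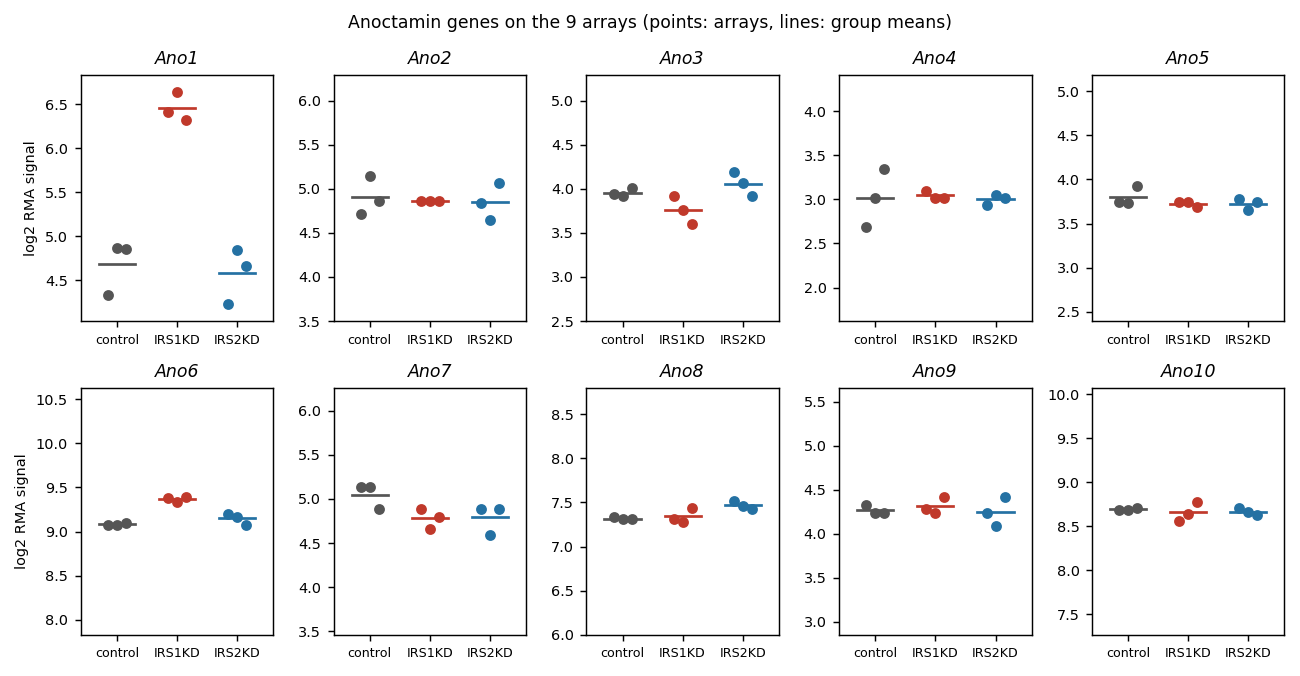
Log2 RMA signal of each anoctamin gene on the 9 arrays, with 1 panel per gene, a point per array and a line at the mean of the 3 arrays of a group. All vertical axes span the same number of log2 units, and the alphaIRS1KD arrays stand clear of the other groups in the panels of Ano1, where they lie between 6.32 and 6.64, and of Ano6, where they lie between 9.34 and 9.39.

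Ano8 and Ano10 are expressed in intracellular membranes and had bright probes. Ano8 tethers the endoplasmic reticulum to the plasma membrane. Its log2 signals were 7.33, 7.31 and 7.31 in control cells, 7.31, 7.28 and 7.44 in alphaIRS1KD cells and 7.52, 7.46 and 7.43 in alphaIRS2KD cells. It was the only member whose alphaIRS2KD arrays all lay apart from the control arrays, by 0.10, yet the log2 difference of 0.15 (95% interval 0.02 to 0.28, unadjusted p = 0.027) did not pass the test across all genes (adjusted p = 0.36 from limma). Ano10, which is mutated in a recessive cerebellar ataxia in human, gave 8.69, 8.69 and 8.71 in control cells, 8.56, 8.64 and 8.78 in alphaIRS1KD cells and 8.71, 8.66 and 8.63 in alphaIRS2KD cells. Its groups overlapped in every comparison. The 95% interval ran from -0.18 to 0.11 in alphaIRS1KD and from -0.17 to 0.11 in alphaIRS2KD against control cells.

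The other members, Ano3, Ano4, Ano5, Ano7 and Ano9, were at or near the brightness of the Olfr genes, and 0 of the 5 passed the test in any comparison. In human, Ano3 is mutated in a dystonia, Ano5 in muscular dystrophies and a bone disorder, and ANO7 is a protein of the prostate. Ano7 had the lowest unadjusted p of them against control. Its log2 signals were 5.13, 5.13 and 4.89 in control cells, 4.89, 4.66 and 4.80 in alphaIRS1KD cells and 4.89, 4.59 and 4.89 in alphaIRS2KD cells, so that a control array shared the value of the highest array of each knockdown. The log2 differences were -0.27 (95% interval -0.51 to -0.02, unadjusted p = 0.034, adjusted p = 0.22 from limma) and -0.26 (-0.50 to -0.02, unadjusted p = 0.037, adjusted p = 0.41). Ano3 differed most between the knockdowns, with 3.92, 3.76 and 3.60 in alphaIRS1KD and 4.19, 4.06 and 3.92 in alphaIRS2KD cells, and this log2 difference of -0.29 did not pass either (95% interval -0.51 to -0.08, adjusted p = 0.15). Ano4, Ano5 and Ano9 had log2 differences between -0.08 and 0.06 in the 3 comparisons. Their signals ran from 2.69 to 3.34, from 3.65 to 3.93 and from 4.09 to 4.42 over the 9 arrays. The widest of these intervals, for Ano4, ran from -0.28 to 0.34 in alphaIRS1KD against control cells.

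Counted over the family, 2 of 10 members were higher and 0 lower in alphaIRS1KD than in control cells at an adjusted p under 0.05. In that comparison 6.66% of all genes were called in either direction, 2.98% as higher and 3.68% as lower. Without adjustment, 2 members above and 1 below control had a p under 0.05, beside 17.9% of all genes. In alphaIRS2KD against control cells 0 of 10 members were called, where 1.59% of all genes were called, 0.893% as higher and 0.694% as lower. Without adjustment, 1 member above and 1 below control had a p under 0.05, beside 10.8% of all genes. In alphaIRS1KD against alphaIRS2KD cells 2 were higher and 0 lower, beside 4.13% of all genes in either direction, 1.71% as higher and 2.42% as lower. The members whose arrays did not overlap between the groups numbered 2, 1 and 2 in these comparisons, and 25.5%, 13.7% and 18.4% of all genes were of that kind. The median log2 difference of the 10 members was -0.01, -0.02 and 0.00, against 0.01, 0.00 and 0.01 for all genes. The family thus had a median near 0, with Ano1 and Ano6 as the members that rose. With 10 genes, a count of 2 carries little weight beside the background. The comparisons share arrays and are not independent of each other.

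**Figure D3:**
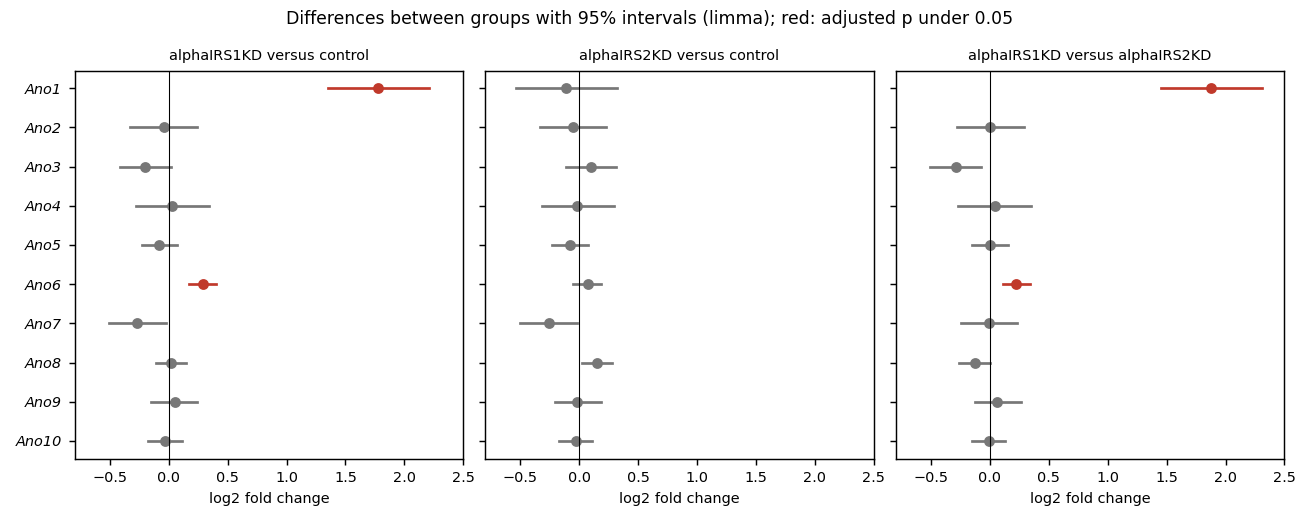
Log2 fold change of the 10 anoctamin genes in each comparison with its 95% interval from limma, drawn in red where the adjusted p was under 0.05. Ano1 stands at 1.78 against control and at 1.88 against alphaIRS2KD cells, Ano6 at 0.29 and 0.22, and no other interval is drawn in red.

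Ano1 was called alone among the measured genes of its neighborhood. In the RefSeq table, 19 other annotated genes had their start within 500 kb of the Ano1 start. Of these, 8 had a probe with 1 symbol, and 0 of the 8 passed the test in any comparison (limma). Over all genes, 6.66%, 1.59% and 4.13% were called in the 3 comparisons, so a count of 0 of 8 carries little weight. Without adjustment, p was under 0.05 for 2 of the 8 in alphaIRS1KD against control cells and for 0 in the other comparisons. The shares of all genes at that p were 17.9%, 10.8% and 15.8%. Cttn, encoding the actin-binding protein cortactin, had log2 signals of 9.66 ± 0.02 (SD, n = 3) on the control, 9.63 ± 0.05 on the alphaIRS1KD and 9.63 ± 0.04 on the alphaIRS2KD arrays. Ccnd1, encoding cyclin D1, had 5.08 ± 0.09 (SD, n = 3), 5.07 ± 0.06 and 5.10 ± 0.05. Fadd, the adaptor of death receptors, came closest to a call. It gave 6.70, 6.72 and 6.65 on the control, 6.90, 7.00 and 6.97 on the alphaIRS1KD and 6.86, 6.90 and 6.64 on the alphaIRS2KD arrays. Its alphaIRS1KD arrays lay above the control arrays but met the highest alphaIRS2KD array, and the log2 difference from control was 0.26 (95% interval 0.10 to 0.43, unadjusted p = 0.0056, adjusted p = 0.071 from limma). Fadd was called in 9 of 22 alternatives. LTO1 differed by 0.29 (adjusted p = 0.13). The other neighbors, Ppfia1, Fgf3, Fgf4 and Fgf15, lay between 0.04 and 0.11 in the same comparison.

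**Figure D4:**
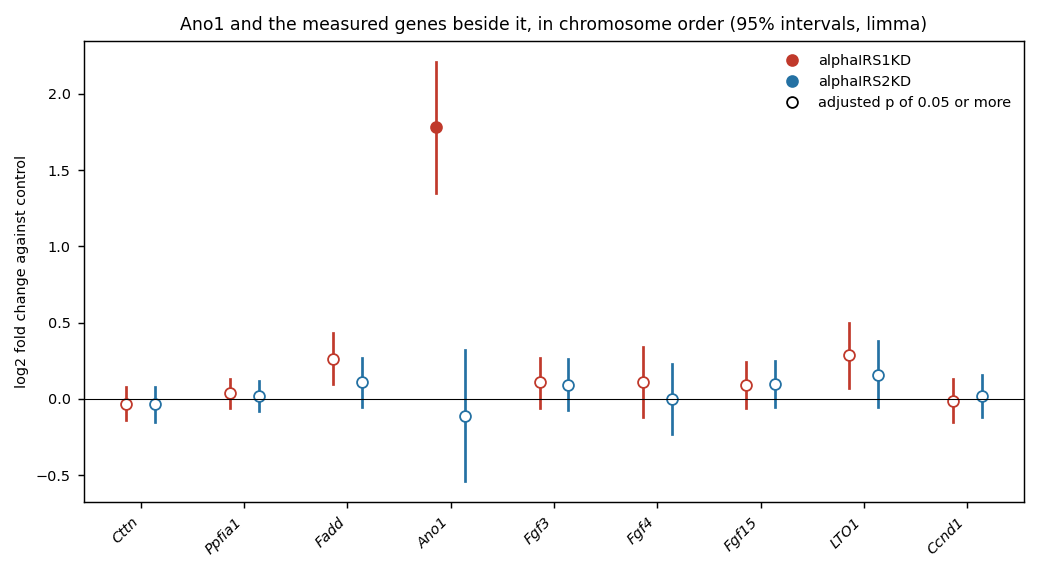
Log2 fold change against control, with 95% intervals from limma, of Ano1 and the 8 measured genes whose start lies within 500 kb, in chromosome order and not to distance. Red is alphaIRS1KD and blue alphaIRS2KD, open points have an adjusted p of 0.05 or more, and the only filled point is Ano1 in alphaIRS1KD cells at 1.78.

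Genes of related function were counted from lists. Of 33 other chloride channels listed, which are the bestrophins, CLCA and CLC proteins, CFTR, the volume-regulated LRRC8 subunits, the tweety proteins and single genes, 29 were measured. In alphaIRS1KD against control cells 0 were higher and 1 was lower, in alphaIRS2KD against control cells 0 were called (limma; without adjustment, p was under 0.05 for 2 that were higher, Clca3a2 and Ttyh1, and 4 that were lower, Best3, Clcn2, Clcn5 and Clcn6), and in alphaIRS1KD against alphaIRS2KD cells 0 were higher and 2 lower. The gene lower in alphaIRS1KD cells was Best3, a member of the bestrophins, another family of calcium-activated chloride channels. Its log2 signals were 8.12, 8.17 and 8.24 on the control, 7.86, 7.91 and 7.89 on the alphaIRS1KD and 8.01, 7.96 and 7.95 on the alphaIRS2KD arrays. Best3 thus fell where Ano1 rose, by 0.29 on the log2 scale (95% interval -0.40 to -0.17, adjusted p = 0.0094 from limma). Its difference in alphaIRS2KD cells was -0.20 (adjusted p = 0.14), and that between the knockdowns was -0.09 (adjusted p = 0.44). Pacc1, the proton-activated chloride channel, and Ttyh1, a tweety protein, were lower in alphaIRS1KD than in alphaIRS2KD cells by -0.44 (adjusted p = 0.020) and -0.34 (adjusted p = 0.047). These calls were kept in 12 and 8 of 22 alternatives. The median log2 difference of the list was -0.05, -0.04 and -0.04, against 0.01, 0.00 and 0.01 for all genes. Of all genes, 6.66%, 1.59% and 4.13% were called in either direction in these comparisons. At an unadjusted p under 0.05 (limma), 1 of the list was higher and 6 lower, 2 and 4, and 4 and 4. The share of all genes at that p was 17.9%, 10.8% and 15.8%.

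Chloride transporters set the chloride gradient on which such channels act. Of 16 listed, 15 were measured. In alphaIRS1KD against control cells 0 were higher and 2 lower, in alphaIRS2KD against control cells 0 were higher and 1 lower, and between the knockdowns 0 were higher and 2 lower in alphaIRS1KD cells. Slc12a4, encoding the potassium-chloride cotransporter KCC1, was in all 3 counts. Its log2 signals were 7.03, 6.98 and 7.09 on the control, 6.20, 6.01 and 6.10 on the alphaIRS1KD and 6.58, 6.58 and 6.54 on the alphaIRS2KD arrays, so that the 3 groups stood apart with alphaIRS2KD in the middle. It fell by 0.93 on the log2 scale in alphaIRS1KD (SE 0.06, 95% interval -1.07 to -0.79, adjusted p = 4.7e-05 from limma) and by 0.46 in alphaIRS2KD cells (adjusted p = 0.007). The difference between the knockdowns was -0.46 (adjusted p = 0.0034). A second, dimmer probe of Slc12a4 had group means of 5.14, 4.94 and 4.87, with alphaIRS2KD the lowest. With the mean of both probes the log2 difference from control was smaller in alphaIRS1KD cells, at -0.56 (adjusted p = 0.0042 from limma), and 2 of the 3 calls were lost, at -0.36 in alphaIRS2KD against control cells (adjusted p = 0.096) and at -0.20 between the knockdowns (adjusted p = 0.30). Slc12a5, encoding KCC2, the cotransporter that lowers chloride in neurons, was lower in alphaIRS1KD cells, with a log2 difference of -0.31 against control (adjusted p = 0.025, called in 13 of 22 alternatives) and of -0.29 against alphaIRS2KD cells (adjusted p = 0.048, called in 6 of 22). The medians of the list were -0.01, -0.04 and 0.02. Beside its counts, 6.66%, 1.59% and 4.13% of all genes were called in the 3 comparisons. At an unadjusted p under 0.05 (limma), 1 was higher and 5 lower, 0 and 2, and 1 and 2. The share of all genes at that p was 17.9%, 10.8% and 15.8%.

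Other genes that move phospholipids between leaflets, the XK-related and PLSCR proteins, the P4-ATPase flippases with their TMEM30 subunits and the scramblases of autophagy, numbered 33, of which 32 were measured. In alphaIRS1KD against control cells 2 were higher and 3 lower, in alphaIRS2KD against control cells 0 were higher and 1 lower, and between the knockdowns 1 was higher and 3 lower in alphaIRS1KD cells. The flippases Atp10d and Atp8a1 were the ones that rose. Atp10d had 7.56, 7.67 and 7.60 on the control, 8.10, 8.03 and 8.04 on the alphaIRS1KD and 7.84, 7.81 and 7.76 on the alphaIRS2KD arrays, a log2 difference of 0.45 from control in alphaIRS1KD (95% interval 0.33 to 0.57, adjusted p = 0.0012 from limma) and of 0.25 between the knockdowns (adjusted p = 0.033, called in 9 of 22 alternatives). Atp8a1, a phosphatidylserine flippase, differed by 0.33 in alphaIRS1KD (adjusted p = 0.0093) and by 0.22 in alphaIRS2KD cells (adjusted p = 0.15). The 3 that fell were Atp8b1, Xkr4 and Atp9a.

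For the flippases Atp8b1, which is mutated in a familial cholestasis in human, and Atp9a the arrays of the knockdowns lay on opposite sides of control. Atp8b1 had 7.10, 7.02 and 6.90 on the control, 6.70, 6.51 and 6.37 on the alphaIRS1KD and 7.65, 7.63 and 7.28 on the alphaIRS2KD arrays. The knockdowns differed by -0.99 (95% interval -1.26 to -0.72, adjusted p = 0.0020 from limma), whereas the call of -0.48 against control in alphaIRS1KD cells (adjusted p = 0.048) was kept in only 11 of 22 alternatives and 0.51 in alphaIRS2KD cells did not pass (adjusted p = 0.093). Atp9a had 5.93, 5.97 and 5.95 on the control, 5.72, 5.67 and 5.64 on the alphaIRS1KD and 6.14, 6.30 and 6.21 on the alphaIRS2KD arrays. The difference between the knockdowns was -0.54 (adjusted p = 0.00093), that from control -0.27 in alphaIRS1KD (adjusted p = 0.019, called in 14 of 22 alternatives) and 0.26 in alphaIRS2KD cells (adjusted p = 0.063). Xkr4, a scramblase switched on by caspases in dying cells, was lower in both knockdowns, by -0.47 in alphaIRS1KD (adjusted p = 0.018) and -0.62 in alphaIRS2KD cells (adjusted p = 0.013), each called in 18 of 22 alternatives. The founder of that family, Xk, was lower in alphaIRS1KD than in alphaIRS2KD cells by -0.33 (adjusted p = 0.021, called in 13 of 22 alternatives). The medians of the list were 0.00, 0.05 and 0.00. Beside its counts, 6.66%, 1.59% and 4.13% of all genes were called in the 3 comparisons. At an unadjusted p under 0.05 (limma), 6 were higher and 5 lower, 5 and 2, and 5 and 5. The share of all genes at that p was 17.9%, 10.8% and 15.8%. Of the TMC and TMEM63 proteins, which share the anoctamin fold, 11 of 11 were measured and 0 were called in each of the 3 comparisons (limma; without adjustment, p was under 0.05 for 0, 1 and 1, which was Tmem63c both times).

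**Figure D5:**
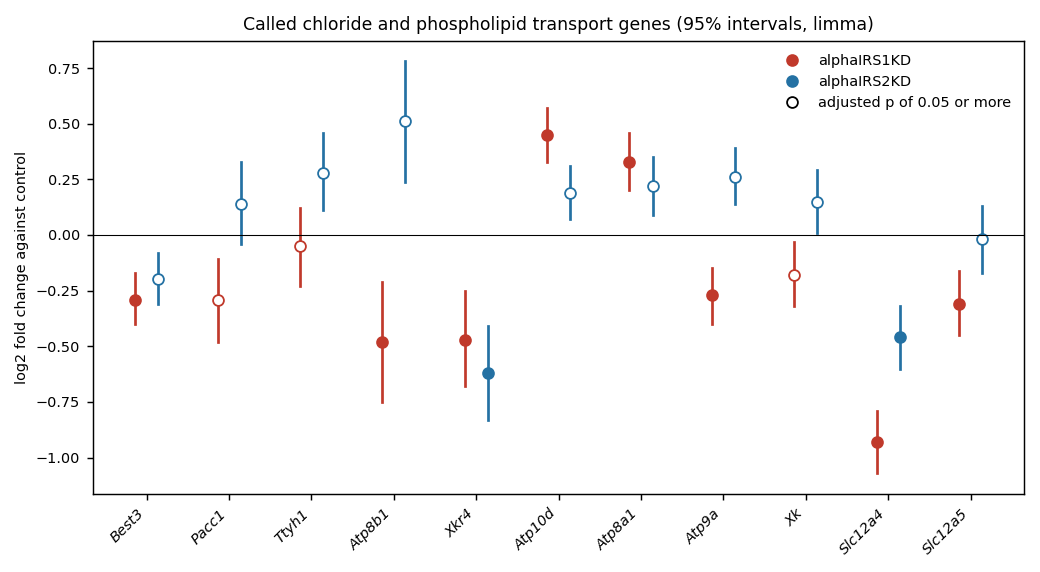
Log2 fold change against control, with 95% intervals from limma, of the chloride channel, chloride transporter, scramblase and flippase genes called in any comparison. Red is alphaIRS1KD and blue alphaIRS2KD, and open points have an adjusted p of 0.05 or more. Slc12a4 is the lowest point at -0.93, and Atp8b1 is at -0.48 in alphaIRS1KD and 0.51 in alphaIRS2KD cells.

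The genes whose signals were most like those of Ano1 were sought among the other 1476 genes called in alphaIRS1KD against control cells, by Pearson's r over the 9 arrays. Since the arrays fall into groups and the genes were picked by this pattern, r is a description of likeness. The highest were Prkg1, encoding a cyclic GMP-dependent protein kinase, with r = 0.972, Cntrl, encoding the centrosomal protein centriolin, Myb, a transcription factor, and Smim31, with 0.969 each, and Tfpi, an inhibitor of coagulation, with 0.967. Their log2 differences between alphaIRS1KD and control cells were 0.85, 0.38, 0.78, 2.09 and 0.88, and those between alphaIRS2KD and control cells were -0.06, 0.00, 0.03, 0.02 and -0.09. The most opposite were Asah2, encoding neutral ceramidase, with r = -0.987, Ryr2, a calcium release channel of the endoplasmic reticulum, with -0.985, and Entpd7, a nucleotide hydrolase, with -0.984. They differed by -1.24, -0.48 and -0.56 between alphaIRS1KD and control cells and by 0.06, -0.01 and -0.02 between alphaIRS2KD and control cells.

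Facts of the series that bear on these values are as follows. Array medians lay between 5.03 and 5.11. Irs1 was at 8.07 ± 0.02 (SD, n = 3) on the control, 7.17 ± 0.05 on the alphaIRS1KD and 8.09 ± 0.08 on the alphaIRS2KD arrays, and Irs2 at 10.65 ± 0.07, 10.50 ± 0.06 and 10.07 ± 0.05, so that each target was lowest in its own knockdown. Irs1 had 2 probes, and only the brighter is given. Irs2 was also lower in alphaIRS1KD than in control cells, by -0.15, and was not called there (adjusted p = 0.23 from limma). The third alphaIRS2KD array was more like the first control array than like its own group. Without it, Ano1 and Ano6 kept their calls against control. All 5 measured alpha-cell markers (Gcg, Ttr, Irx1, Irx2 and Slc7a2) were above the 99th percentile of the Olfr genes, with a summed level (log2 of the summed linear signals) of 14.28 to 14.31 on the control, 14.03 to 14.05 on the alphaIRS1KD and 14.19 to 14.21 on the alphaIRS2KD arrays. In alphaIRS1KD against control cells Irx1 and Irx2 were higher, by 0.51 and 0.39, and Ttr lower, by -0.98. Gcg and Slc7a2 differed by -0.04 and -0.01, so that Ttr was the only one of the 5 called as lower. The Gcg signals, from 13.21 to 13.25, were near the highest signals of the arrays (13.53 to 13.61). A change of Gcg may not show there, which was not tested. In alphaIRS2KD cells the signs of Irx1, Irx2 and Ttr were the same. Irx1 was called there, at 0.35 (adjusted p = 0.024 from limma), and Irx2 at 0.22 and Ttr at -0.26 were not. Between the knockdowns Ttr was called, at -0.72, and Irx1 and Irx2 were not (adjusted p = 0.26 and 0.13). Of the 7 beta-cell markers measured 2 were above that percentile and 0 were called in any comparison (limma). Without adjustment, p was under 0.05 for 0 of them in alphaIRS1KD against control cells. In alphaIRS2KD against control cells it was so for 4 (Ins2, Iapp, Mafa and Slc2a2). Between the knockdowns it was so for 3 (Ins2, Iapp and Mafa). Beside the counts of all marker lists, 6.66%, 1.59% and 4.13% of all genes were called in the 3 comparisons. Such an unadjusted p was found for 17.9%, 10.8% and 15.8% of all genes. Iapp, which encodes the islet amyloid hormone of beta cells, gave 4.86, 4.61 and 4.86 on the control, 4.71, 4.86 and 4.65 on the alphaIRS1KD and 5.11, 6.35 and 6.44 on the alphaIRS2KD arrays. All alphaIRS2KD arrays were above the others, with a log2 difference of 1.19 from control (95% interval 0.51 to 1.87, adjusted p = 0.12) and of -1.23 between alphaIRS1KD and alphaIRS2KD cells (adjusted p = 0.061). The differences of Ins2, an insulin gene, were 0.72 (adjusted p = 0.088) and -0.50 (adjusted p = 0.17). The beta-cell markers did not move together in alphaIRS2KD against control cells. Mafa, Slc2a2 and Pdx1 went the other way, at -0.24, -0.15 and -0.18, and Nkx6-1 and Ucn3 were at 0.04 and 0.14. The number above that percentile was 0 of 4 for delta, PP and epsilon markers and 0 of 8 for fibroblast, endothelial and immune markers, with 0 called (limma; without adjustment, 0 of the former in each comparison and 1 of the latter, Ptprc in the comparisons with alphaIRS1KD and Dcn in alphaIRS2KD against control cells). Of 6 acinar and duct markers, 2 were above it, and Sox9, a duct and progenitor factor, was lower in alphaIRS1KD cells, by -0.80. The summed acinar and duct level was 8.04 to 8.20 on the control, 7.76 to 7.81 on the alphaIRS1KD and 7.93 to 8.10 on the alphaIRS2KD arrays. Sox9 was the only marker of this list that was called. In alphaIRS1KD against control cells Cpa1, Prss2, Cela1, Ptf1a and Krt19 differed by 0.02, -0.01, 0.02, 0.20 and 0.12. The part of these marker changes in the Ano1 and Ano6 results was not tested.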

How the data were processed

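The 9 samples, 3 of each line, were run on Affymetrix Mouse Gene ST microarrays. The authors processed the intensities with RMA (version and genome build not given in the sources used here) and deposited log2 values, which were used without further scaling. Microarrays have no sequencing depth, and precision is limited by the number of arrays. Of 41345 probes, 23521 carry 1 symbol in the platform annotation, 1820 several and 16004 none, and only the first kind was used. The brightest probe by mean was kept for the 1082 genes with more than 1, giving 22180 genes. The 3 comparisons were fitted together in limma 3.58.1 (R 4.3.3), each group having 1 coefficient, and p-values were adjusted by Benjamini-Hochberg over all genes. Calls required a two-sided adjusted p under 0.05. An SD is the spread of a group's 3 arrays, and intervals are at 95%. The fit was tested on simulated data. Motifs were searched on both strands of RefSeq promoters.

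The members, the gene lists and the tests were chosen with earlier results of these data known, so counts over lists are descriptions. The text names all members, up to 4 called genes per list and comparison by absolute change, the measured genes beside Ano1, the 5 most and 3 least alike to it, and the markers. Genes of most small counts are named beyond this. These, Atp9a in alphaIRS1KD against control cells and those with only an unadjusted p under 0.05, were picked once their values had been seen. The alternatives were averaging the probes of a gene, testing all probes, the dimmest 30 percent of genes left out, quantile normalization, median centring, only the 2 compared groups, the replicate number as a block, a trend and robust prior, array weights, the methods' t-test with and without adjustment, thresholds of 0.01 and 0.1, and each array left out in turn, 22 in all.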

Additional observations from a re-analysis of the deposited data

Results flagged for a closer look

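The effect of the knockdowns differed, by the limma test of alphaIRS1KD against alphaIRS2KD cells across all genes, for the members Ano1 and Ano6, with log2 differences (alphaIRS1KD minus alphaIRS2KD) of 1.88 (adjusted p = 8e-04) and 0.22 (adjusted p = 0.046). Among the related genes the same held for Atp8b1 at -0.99 (adjusted p = 0.002), Atp9a at -0.54 (adjusted p = 0.00093), Slc12a4 at -0.46 (adjusted p = 0.0034), Pacc1 at -0.44 (adjusted p = 0.02), Ttyh1 at -0.34 (adjusted p = 0.047), Xk at -0.33 (adjusted p = 0.021), Slc12a5 at -0.29 (adjusted p = 0.048) and Atp10d at 0.25 (adjusted p = 0.033). Among the cell type markers it held for Ttr at -0.72 (adjusted p = 0.00027) and Sox9 at -0.47 (adjusted p = 0.018). In all genes 4.13% were called in this comparison. Several of these calls depended on the setting. They were kept in 6 of 22 alternatives for Ano6 and Slc12a5, 8 for Ttyh1, 9 for Atp10d, 12 for Pacc1 and 13 for Xk. The others were kept in 15 to 22, and that of Slc12a4 was lost with the mean of its probes.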

How the results depend on the processing

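Ano1 and Ano6 were called as higher in alphaIRS1KD against control cells in 22 of 22 alternatives (log2 fold change 1.60 to 1.87, adjusted p 9.2e-05 to 0.034, and 0.28 to 0.31, adjusted p 0.00087 to 0.041). Of 648 alternative values of the members, 0 reversed a call, 17 lost one, 1 gained one and 19 changed sign without a call. Against alphaIRS2KD cells, Ano1 lost its call in the adjusted methods' t-test (adjusted p = 0.067). Ano6 lost it with all probes tested, median centring, only the 2 compared groups, the replicate block, array weights and a threshold of 0.01, so that 1 member in place of 2 was higher, as in all 9 fits without 1 array (1 to 1). The adjusted t-test left 0. The unadjusted t-test called 1 member, Ano8, as higher in alphaIRS2KD against control cells. The labels do not say whether samples with the same replicate number were prepared together. With group means removed, correlations of same-numbered arrays ran from -0.08 to 0.02. Of the 9 arrays, 1 correlated best with an array of its own number in another group. With the replicate block the calls of all genes fell from 1477 to 1134, 352 to 218 and 916 to 613.

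Of the 8 genes beside Ano1, 0 were called against control. Fadd made it 1 under the dim filter, quantile normalization, only the 2 compared groups, the trend and robust prior, array weights, the adjusted t-test, a threshold of 0.1 and without the third alphaIRS2KD array (0 to 1 over the arrays), and with LTO1 it was 2 under the unadjusted t-test. Genes called in the related lists numbered 8 in alphaIRS1KD against control cells, and 13 with array weights, 17 with the unadjusted t-test, 4 at 0.01 and 4 to 11 without 1 array (5, 4 and 5 without control arrays 1 and 3 and alphaIRS1KD array 3). They numbered 2 in alphaIRS2KD against control cells, and 1 with the mean of probes, 4 under the dim filter, 0 and 12 with the adjusted and unadjusted t-test, 1 and 4 at 0.01 and 0.1, and 1 to 4 without 1 array (1 without control array 3 or alphaIRS2KD array 1, 4 without alphaIRS2KD array 3). Between the knockdowns they numbered 8, and 3 with all probes, 5 with median centring, 3 with only the 2 compared groups, 4 with the replicate block, 0 with the adjusted t-test, 3 at 0.01 and 3 to 10 without 1 array (5 without control array 3, and 3, 4 and 3 without alphaIRS1KD arrays 1, 2 and 3, and 3 and 4 without alphaIRS2KD arrays 1 and 2).

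Over all genes, the 1477 calls in alphaIRS1KD against control cells were 3815 and 901 by the unadjusted and adjusted t-test, 755 at 0.01 and 952 to 1722 without 1 array. The 352 and 916 calls of the other comparisons were 58 and 138 by the adjusted t-test, 1773 and 2544 by the unadjusted, 151 and 405 at 0.01, and 168 and 511 with only the 2 compared groups. The 352 became 549 with the trend and robust prior and 178 to 384 without 1 array, and the 916 became 528 to 1132. The dim filter leaves out Ano3, Ano4, Ano5 and Ano9. No scaling moved the median of all genes by more than 0.03, and the cause of lost calls was not tested. Dim signals limit what these 4 probes, Ano2 and Ano7 can show.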
